A study of Mus musculus with 18 samples.

Results

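EBF1 and PAX5 both bound 675 distal intergenic sites among the 14377 ChIP-bound sites of this series, and under the authors' scaling most of these 675 sites were less accessible in pro-B cells lacking either factor than in wild-type cells. The sites were taken from the authors' list of 1529 places where an EBF1 ChIP peak overlaps a PAX5 ChIP peak, keeping those annotated as intergenic and more than 1000 bp from the nearest transcription start site. The ChIP data were published earlier and re-analysed by the authors, and no accessibility or RNA value was used to choose the sites. All 675 intergenic sites of that list lay beyond the limit, the nearest of them 1017 bp from a start, so no intergenic site fell just short of it. Of those nearest to the limit, the site by Glt28d2 averaged 19.6 ATAC tags per 10 M in Ebf1-KO, 13.6 in Pax5-KO and 21.9 in WT libraries, and the one by Morc3 averaged 2.23 in Ebf1-KO, 5.09 in Pax5-KO and 20.5 in WT libraries.

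Fetal livers of C57BL6/J mice gave the pro-B cells, which were of 3 genotypes: Ebf1-deficient (Ebf1-KO), Pax5-deficient (Pax5-KO) and wild type (WT). All cultures shared OP9 stromal cells, KIT ligand, FLT3 ligand and interleukin-7. Accessible chromatin (ATAC, which reads where a transposase can cut) and RNA were each sequenced in 9 libraries, 3 per genotype. The labels state neither the fetal age nor the exons removed, nor whether replicates came from separate fetuses or cultures, so p-values measure the spread between libraries, which may be technical.

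EBF1 is an early B-lineage transcription factor that opens chromatin and starts the B-cell programme, and PAX5 acts after it to commit cells to the B lineage and to repress genes of other lineages. Each gene depends in part on the other. Intergenic sites far from promoters that both factors bind are candidate enhancers, and the gene nearest to such a site is not necessarily the one it acts on. The comparison addresses how loss of either protein changes accessibility where both bind.

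Sequences of 8 sites, chosen after their values were seen, illustrate the patterns described, with 200 bp around the centre of each site on the plus strand of mm10 (GRCm38), read from the RefSeq genome of that build. Capitals mark the core of the EBF1 palindrome (CCCNNGGG) and the PAX5 core (GCNTGAC, or its reverse complement). The first 3 windows are shown because accessibility there was near 0 in Ebf1-KO cells and higher in Pax5-KO cells. The next 4 had lost most of their signal in both knockouts, and the last was more open in both and holds neither core.
Tmem64 site, chr4:15252589-15252788: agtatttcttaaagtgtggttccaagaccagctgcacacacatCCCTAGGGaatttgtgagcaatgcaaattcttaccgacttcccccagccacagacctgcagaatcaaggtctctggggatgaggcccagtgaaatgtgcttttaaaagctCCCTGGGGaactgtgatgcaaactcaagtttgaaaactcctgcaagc
Aldh8a1 site, chr10:21468501-21468700: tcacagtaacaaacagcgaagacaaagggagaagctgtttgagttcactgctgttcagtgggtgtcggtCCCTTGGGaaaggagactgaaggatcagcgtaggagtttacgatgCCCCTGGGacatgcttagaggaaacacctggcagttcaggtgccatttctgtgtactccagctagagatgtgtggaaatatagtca
Id3 site, chr4:136127827-136128026: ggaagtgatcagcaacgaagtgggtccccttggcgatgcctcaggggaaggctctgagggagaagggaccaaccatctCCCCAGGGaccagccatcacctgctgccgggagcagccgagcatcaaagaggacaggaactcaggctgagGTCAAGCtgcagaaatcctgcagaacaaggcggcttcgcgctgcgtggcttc
Fcrla site, chr1:170928593-170928792: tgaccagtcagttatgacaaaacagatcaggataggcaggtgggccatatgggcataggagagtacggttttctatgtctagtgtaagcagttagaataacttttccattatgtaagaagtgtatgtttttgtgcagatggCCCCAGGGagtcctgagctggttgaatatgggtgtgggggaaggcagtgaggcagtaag
Il7r site, chr15:9549053-9549252: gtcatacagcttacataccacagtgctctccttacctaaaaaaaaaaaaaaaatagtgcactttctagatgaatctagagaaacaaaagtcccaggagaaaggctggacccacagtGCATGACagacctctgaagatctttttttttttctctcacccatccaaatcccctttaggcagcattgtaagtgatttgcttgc
Sel1l3 site, chr5:53230676-53230875: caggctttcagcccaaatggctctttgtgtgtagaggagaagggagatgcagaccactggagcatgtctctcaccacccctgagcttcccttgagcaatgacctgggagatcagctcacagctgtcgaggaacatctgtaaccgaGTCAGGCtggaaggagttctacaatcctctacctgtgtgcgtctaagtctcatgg
Gm12159 site, chr11:45323808-45324007: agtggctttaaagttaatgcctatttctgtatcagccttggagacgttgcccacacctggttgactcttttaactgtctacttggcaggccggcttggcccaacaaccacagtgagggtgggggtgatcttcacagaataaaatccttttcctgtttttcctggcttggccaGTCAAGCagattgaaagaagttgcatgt
Gm16675 site, chr8:46713276-46713475: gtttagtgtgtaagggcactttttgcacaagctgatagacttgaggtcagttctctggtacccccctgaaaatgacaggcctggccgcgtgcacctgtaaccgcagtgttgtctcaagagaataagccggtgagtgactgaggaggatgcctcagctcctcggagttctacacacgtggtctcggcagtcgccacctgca
The Tmem64 and Aldh8a1 windows each held 2 EBF1 cores and no PAX5 core, and the Id3 window held 1 of each. The Il7r, Sel1l3 and Gm12159 windows each held 1 PAX5 core and no EBF1 core, and the Fcrla window held 1 EBF1 core alone.

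ATAC libraries held 15.3 to 38.6 M tags, and values are tags per 10 M in each library, as the authors scaled them. The share of tags falling in all bound sites was 0.930 to 1.11% in Ebf1-KO, 0.825 to 1.02% in Pax5-KO and 1.52 to 2.31% in WT libraries, and its part in the results was not tested. Among the RNA libraries, reads of Pax5 averaged 109 ± 17.5 per 10 M in Pax5-KO and 1521 ± 179 in WT cells, and those of Ebf1 averaged 1465 ± 131 in Ebf1-KO and 3969 ± 634 in WT cells (SD, n = 3 each). Whole-gene reads do not show whether a deleted part is missing. Among pro-B markers, Cd79a, a signalling chain of the B-cell receptor, averaged 1.88 in Ebf1-KO, 227 in Pax5-KO and 2226 in WT cells, and Igll1, a surrogate light chain gene, averaged 9.06 in Ebf1-KO, 4428 in Pax5-KO and 7560 in WT cells. Not all of these markers took that order. Il7r averaged 2079 in Ebf1-KO, 869 in Pax5-KO and 1821 in WT cells, Blnk 0.99 in Ebf1-KO, 0.48 in Pax5-KO and 1151 in WT cells, and Ebf1 itself 1515 in Pax5-KO cells, close to its level in Ebf1-KO. The summed levels in Ebf1-KO, Pax5-KO and WT libraries were 343 to 365, 12.5 to 15.5 and 3.33 to 3.93 for 4 T-lineage markers, 974 to 1029, 60.4 to 121 and 6.69 to 7.29 for 3 NK and innate lymphoid markers, and 171 to 258, 38.7 to 57.0 and 0.704 to 1.96 for 3 myeloid markers. For 4 stromal markers they were 345 to 449, 32.8 to 55.8 and 4.49 to 51.4. Most of the Ebf1-KO sum was Pdgfrb, at a mean of 373, while Col1a1, a stromal collagen gene, averaged 1.69 in Ebf1-KO, 2.07 in Pax5-KO and 4.30 in WT cells. These lists moved with the genotypes, and their part in the ATAC differences was not tested. In bulk samples fewer cells of a type and less signal per cell cannot be told apart.

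The median of the 675 sites was 3.5, 3.63 and 3.84 tags per 10 M in the Ebf1-KO libraries, 7.05, 6.10 and 6.08 in the Pax5-KO libraries, and 25.5, 16.8 and 20.7 in the WT libraries. The 3 genotypes did not overlap, with Ebf1-KO lowest and WT highest. As log2(value + 1), the library medians averaged 2.22 ± 0.05 in Ebf1-KO, 2.89 ± 0.11 in Pax5-KO and 4.44 ± 0.29 in WT (SD, n = 3 each). Across the 9 libraries the genotypes differed by an exact permutation test (p = 0.0036, the smallest that 1680 arrangements can give, two-sided), while each pair of genotypes gave the exact permutation p of 0.1, the smallest that 3 against 3 allows.

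Site by site, limma's test on log2(value + 1) with Benjamini-Hochberg adjustment over 14365 sites found 528 of the 675 lower and 13 higher in Ebf1-KO than in WT cells (78.2 and 1.93%). Over all bound sites tested, 51.1% were lower and 3.28% higher. In Pax5-KO against WT cells 536 of the 675 were lower and 6 higher (79.4 and 0.889%), beside 51.5 and 2.11% of all sites tested. The 675 sites had more WT signal than all bound sites, with medians of 20.8 and 8.83 tags, and the part of this in the calls was not tested. Among sites with a mean of at least 5 tags per 10 M, 469 of 591 were lower in Ebf1-KO (79.4%), beside 55.6% of all such sites. In Pax5-KO 485 of the 591 were lower (82.1%), beside 65.3%. A site can pass that filter on WT signal alone. All 675 passed the main minimum of 10 tags over the 9 libraries. With TMM scaling, which centres the bulk of the sites, the same tests gave 420 lower and 97 higher in Ebf1-KO (62.2 and 14.4%), beside 29.7 and 20.4% of all sites, and 318 lower and 73 higher in Pax5-KO (47.1 and 10.8%), beside 21.3 and 13.8% of all sites. All 420 and all 318 had also been called lower under the authors' scaling, and no site called lower there was called higher with TMM. TMM raised the ratios over WT in general, so calls of the 420 and 318 under both scalings are largely implied and are no separate support.

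The median log2 fold change of all sites tested was −0.78 in Ebf1-KO over WT, −0.75 in Pax5-KO over WT and −0.02 in Ebf1-KO over Pax5-KO, and with TMM it was −0.10, 0.03 and −0.05. Each log2 fold change of a site is therefore given less the median of its own comparison under the authors' scaling, with its standard error. Calls were made on the unshifted values, and of the sites called lower 15 in the Ebf1-KO comparison and 20 in that of Pax5-KO lay above the median of all sites. The pseudocount of 1 understates the change where a group has few tags. On this scale the median of the 675 sites was −1.12 in Ebf1-KO over WT, with an interquartile range of −2.04 to −0.08, and −0.68 in Pax5-KO over WT, with an interquartile range of −1.52 to −0.03. In Ebf1-KO 518 of the 675 lay below the median of all sites, and in Pax5-KO 516 did.

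**Figure D1:**
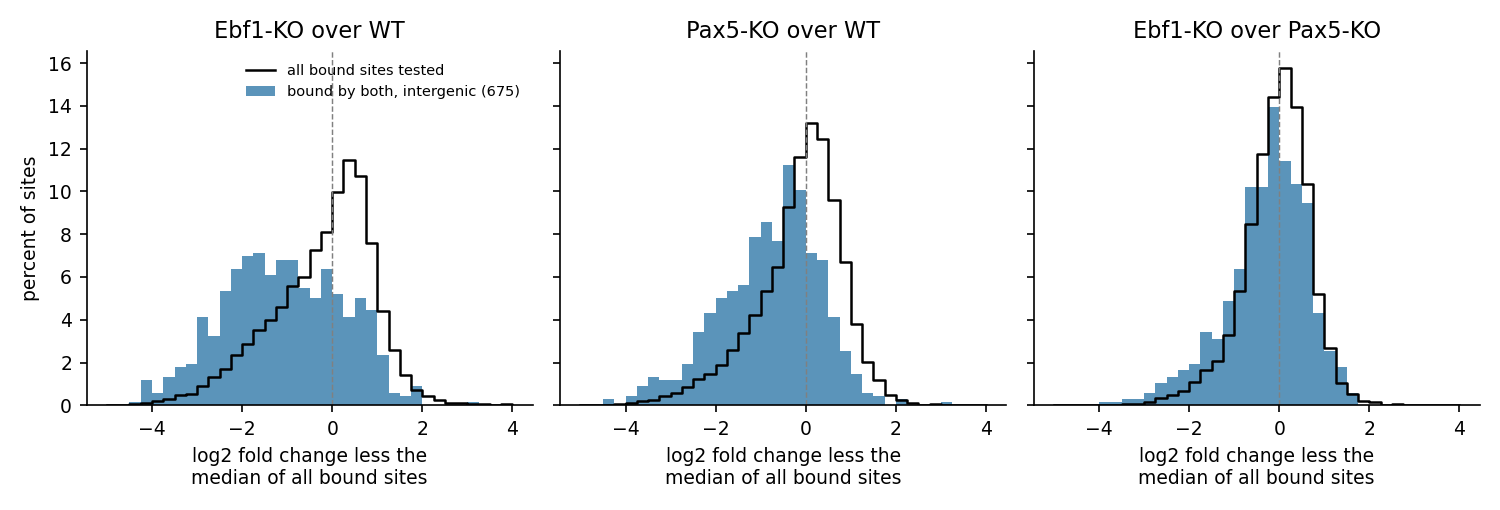
Percent of sites (vertical axis) by log2 fold change less the median of all bound sites (horizontal axis) in 3 comparisons, with the 675 intergenic distal sites bound by both factors as bars and all 14365 bound sites tested as a line. The bars lie to the left of the line in both knockouts over WT, with medians of −1.12 and −0.68, and close to it in Ebf1-KO over Pax5-KO, with a median of −0.18.

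The same sites were set against the 3 kinds of bound site most like them, by taking the difference of the class medians within each library, which library scaling alters only through the pseudocount. Over 2736 EBF1-only intergenic distal sites, the sites bound by both factors stood 0.59 ± 0.02 log2 units higher in Ebf1-KO, 0.69 ± 0.03 in Pax5-KO and 1.57 ± 0.11 in WT libraries (SD, n = 3 each). Over 2206 PAX5-only intergenic distal sites the margin was 0.53 ± 0.08 in Ebf1-KO, 1.24 ± 0.11 in Pax5-KO and 1.37 ± 0.10 in WT libraries. Sites bound by both factors therefore had a wide margin in WT over either single-factor class, and it was narrower in every Ebf1-KO library. In Pax5-KO the margin was narrower over EBF1-only sites, and over PAX5-only sites it overlapped that of WT. This overlap holds for the pseudocount of 1, where PAX5-only medians in Pax5-KO were only 2.12 to 2.17 tags. With a pseudocount of 5 the same medians put every Pax5-KO margin below those of WT. Over 668 intronic distal sites bound by both factors, the differences were −0.04 ± 0.03 in Ebf1-KO, −0.06 ± 0.05 in Pax5-KO and 0.04 ± 0.03 in WT libraries. The exact permutation test over the 9 libraries, adjusted over the 3 classes, gave p = 0.0107 for EBF1-only, 0.0161 for PAX5-only and 0.0821 for intronic sites. Pairs of genotypes could not pass 0.05, since the smallest exact permutation p of 3 against 3 is 0.1, so that test decides nothing about them. After adjustment over 9 comparisons its smallest p was 0.129.

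**Figure D2:**
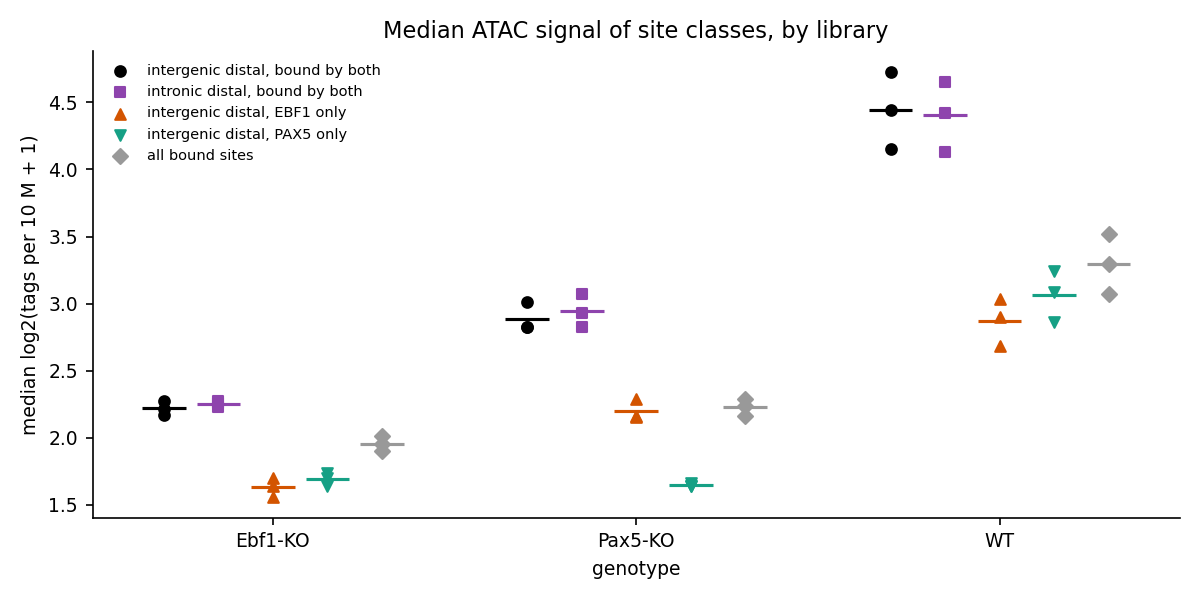
Median ATAC signal as log2(tags per 10 M + 1) (vertical axis) in each of 3 libraries per genotype (points) with the mean of the 3 (lines), for the 675 intergenic distal sites bound by both factors, 3 like classes and all bound sites. Intergenic sites bound by both factors average 2.22 in Ebf1-KO, 2.89 in Pax5-KO and 4.44 in WT, and stand over both single-factor classes in every library.

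Some of the deepest losses were seen in both knockouts. The site with the largest fall in Ebf1-KO lay 42.6 kb downstream of the start of Kcnk9, which encodes a potassium channel, at chr15:72503568-72503841, inside the Kcnk9 gene of the GENCODE vM21 annotation although the authors' annotation calls it intergenic. It had 1.17, 0.3 and 0.32 tags per 10 M in Ebf1-KO, 2.47, 1.33 and 0.87 in Pax5-KO, against 74.5, 35.0 and 60.6 in WT libraries. Every WT library stood far above all 6 knockout libraries. The log2 fold change was −4.37 ± 0.33 in Ebf1-KO over WT (adjusted p = 7.85e-25, limma) and −3.73 ± 0.33 in Pax5-KO over WT (adjusted p = 3.85e-21, limma). The largest fall in Pax5-KO was 57.2 kb upstream of Mbip, at chr12:56402899-56403224, with 0.78, 1.21 and 1.92 tags in Ebf1-KO, 2.12, 0.53 and 0.43 in Pax5-KO, against 83.6, 42.2 and 70.4 in WT libraries. Its log2 fold change was −4.33 ± 0.33 in Pax5-KO over WT and −4.04 ± 0.33 in Ebf1-KO over WT. Closely alike was the Sel1l3 site, 17.3 kb upstream of that gene at chr5:53230610-53230940, with means of 1.47 ± 0.72 in Ebf1-KO, 1.06 ± 0.54 in Pax5-KO and 67.1 ± 17.7 in WT libraries (SD, n = 3 each). At these sites accessibility in both knockouts was near 1 tag per 10 M.

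Among the 3 sites with the highest WT signal, one was lost in both knockouts, one in part, and one was not called in either under the authors' scaling. The site 6.78 kb upstream of Bdkrb1, a bradykinin receptor gene, at chr12:105597122-105597511, had 7.40, 3.03 and 1.60 tags in Ebf1-KO, 2.82, 4.77 and 2.17 in Pax5-KO, against 122, 78.6 and 109 in WT libraries. A site with no gene named by the authors, at chr9:96437860-96438259, had 16.4, 16.3 and 20.5 tags in Ebf1-KO, 53.3, 37.4 and 42.6 in Pax5-KO, against 134, 89.5 and 110 in WT libraries, so that the genotypes formed 3 separate levels. The site 64.8 kb downstream of the start of Zfp958 had 88.8, 98.9 and 124 tags in Ebf1-KO, 73.4, 66.0 and 53.0 in Pax5-KO, against 121, 75.2 and 107 in WT libraries. Its Ebf1-KO and WT libraries overlapped, and with TMM scaling it was called higher in Ebf1-KO than in WT.

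The other deepest falls named by size were the sites nearest 1700030O20Rik, Tmem64, Gm2447, Gm12159 and an unnamed site on chromosome 2 in Ebf1-KO, and those nearest Vmn2r-ps54, Bdkrb1 and Fcrla in Pax5-KO. The site 207 kb upstream of Gm12159, for example, had 0, 0.3 and 0.96 tags in Ebf1-KO, 0.35, 0.8 and 2.17 in Pax5-KO, against 42.5, 33.3 and 40.9 in WT libraries. In all, 176 of the sites called lower in Ebf1-KO and 101 of those called lower in Pax5-KO lay more than 2 log2 units below the median of all sites.

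Compared directly, 166 of the 675 sites were lower and 58 higher in Ebf1-KO than in Pax5-KO cells (24.6 and 8.59%), beside 12.6 and 9.06% of all sites tested. With TMM scaling 194 were lower and 93 higher (28.7 and 13.8%), beside 15.5 and 12.9% of all sites. The share of lower sites exceeded the background under both scalings, while that of higher sites was just below it under the authors' scaling and just above it with TMM. All 58 sites called higher had Ebf1-KO libraries above every Pax5-KO library, and 165 of the 166 called lower had them below. The calls rest on these same libraries, so this separation is largely implied by them and is no separate support. The largest differences lay on the lower side, where 37 sites were more than 2 log2 units from the median of all sites, against none of the 58 higher ones. All bound sites leaned the same way, with 0.682% between −2.25 and −2 and 0.174% between 2 and 2.25. The 675 sites had 1.63 and 0% there. The count of 58 was 34 without Ebf1-KO replicate 3 and 35 without Pax5-KO replicate 2.

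**Figure D3:**
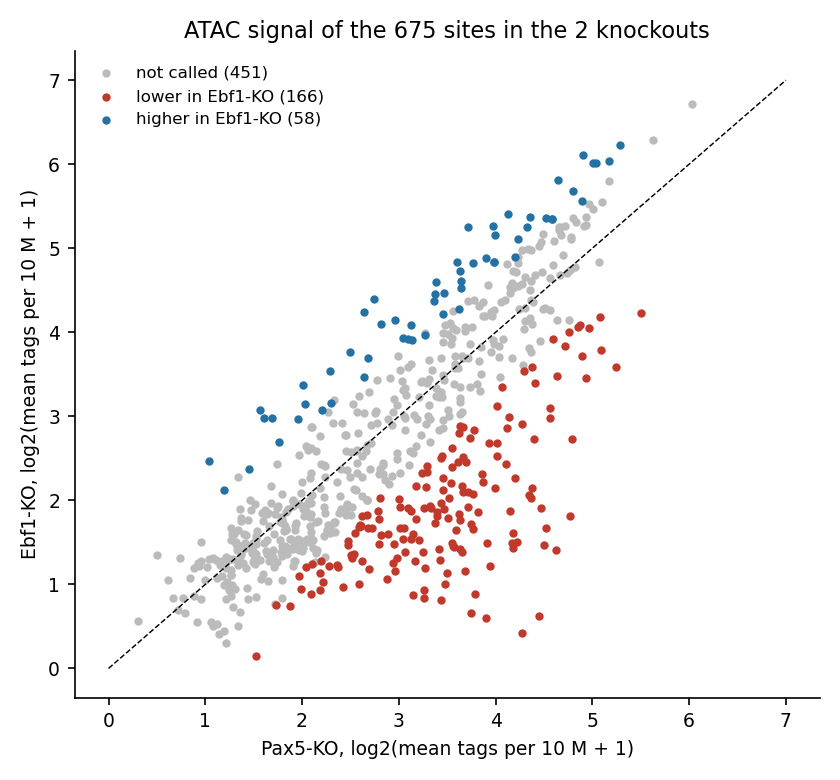
Mean ATAC signal of each of the 675 sites in Ebf1-KO (vertical axis) against Pax5-KO cells (horizontal axis), both log2(mean tags per 10 M + 1), with the line of equal signal dashed. The 166 sites lower in Ebf1-KO reach much further from the line than the 58 higher ones.

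The site most reduced in Ebf1-KO relative to Pax5-KO was 13.1 kb upstream of Tmem64, which encodes a transmembrane protein, at chr4:15252553-15252823. It had 0.39, 0 and 0.64 tags in Ebf1-KO, 25.0, 14.8 and 15.2 in Pax5-KO, against 50.3, 25.1 and 47.6 in WT libraries. Accessibility was thus near 0 in Ebf1-KO and intermediate in Pax5-KO cells, and the log2 fold change of Ebf1-KO over Pax5-KO was −3.82 ± 0.29 (adjusted p = 2.59e-19, limma). The site 101 kb upstream of Gm2447, at chr3:52638891-52639190, had the same order, with 0.39, 0.61 and 0.64 tags in Ebf1-KO, 26.1, 23.9 and 12.6 in Pax5-KO, against 54.9, 42.2 and 51.0 in WT libraries. Near Aldh8a1, a gene for an aldehyde dehydrogenase, the site 91.3 kb downstream of the start had 0.78, 0 and 0.96 tags in Ebf1-KO, 16.9, 10.3 and 9.99 in Pax5-KO, against 10.4, 5.41 and 12.2 in WT libraries. There the Pax5-KO and WT libraries overlapped. Sites near Nxph1, Rprl1 and Egflam made up the 6 largest falls in this comparison, with log2 fold changes of −3.37, −3.32 and −3.01. The Egflam site had 18.6 to 23.5 tags in Pax5-KO and 10.3 to 18.3 in WT libraries, and with TMM scaling alone it was called higher in Pax5-KO than in WT.

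In the other direction, the largest excess in Ebf1-KO over Pax5-KO was 6.50 kb upstream of Nostrin, an adaptor of nitric oxide synthase, at chr2:69129146-69129446. The libraries had 19.5, 21.8 and 18.9 tags in Ebf1-KO, 6, 5.04 and 6.08 in Pax5-KO, against 25.5, 15.4 and 29.5 in WT cells. Ebf1-KO and WT overlapped here, and Pax5-KO stood below both (log2 fold change of Ebf1-KO over Pax5-KO 1.67 ± 0.27, adjusted p = 6.44e-07, limma). Nostrin RNA was likewise lowest in Pax5-KO, at 20.5 ± 2.78 reads per 10 M in Ebf1-KO, 1.93 ± 0.44 in Pax5-KO and 5.84 ± 0.76 in WT cells (SD, n = 3 each), but differed from the site in being highest in Ebf1-KO. The site 26.5 kb upstream of Mn1, a transcriptional co-regulator gene known from myeloid leukaemia, had the highest ChIP score of all 675 sites (817, the authors' own unit). It had 15.2, 19.97 and 18.6 tags in Ebf1-KO, 7.05, 3.45 and 5.21 in Pax5-KO, against 29.4, 25.6 and 28.0 in WT libraries. Its accessibility was lowest in Pax5-KO, whereas Mn1 RNA averaged 831 ± 111 reads per 10 M in Ebf1-KO, 116 ± 14.6 in Pax5-KO and 0.511 ± 0.529 in WT cells. Map4k3, Fcrla, E130006D01Rik and Gm12669 were nearest to the remaining 4 of the 6 largest rises, with log2 fold changes of 1.54, 1.54, 1.42 and 1.39.

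Few sites gained accessibility in a knockout under the authors' scaling. The largest gain in both was at chr8:46713237-46713513, inside the non-coding gene Gm16675, with 11.3, 13.01 and 15.04 tags in Ebf1-KO, 14.8, 12.7 and 12.6 in Pax5-KO, against 0, 4.27 and 3.88 in WT libraries. The log2 fold change was 3.03 ± 0.33 in either knockout over WT (adjusted p = 6.88e-09 in Ebf1-KO and 6.98e-09 in Pax5-KO, limma). The site 4.72 kb upstream of Plaur, the urokinase receptor gene of myeloid and other migrating cells, had 31.1, 36.6 and 43.2 tags in Ebf1-KO, 24.3, 19.4 and 13.5 in Pax5-KO, against 14.4, 15.9 and 19.9 in WT libraries. It rose in Ebf1-KO (1.88 ± 0.26), and Plaur RNA was called higher in both knockouts. Upstream of Cd83, an activation marker of lymphocytes and dendritic cells, the site had 10.1, 10.3 and 17.3 tags in Ebf1-KO, 3.88, 3.98 and 6.08 in Pax5-KO, against 4.57, 7.12 and 5.44 in WT libraries. Sites near Gm5544, 9430083A17Rik and Usp38 also rose in Ebf1-KO, by 1.83, 1.85 and 1.79. In Pax5-KO the other named rises were near Cstf1, Osgin1, 2410131K14Rik and Mex3a, with log2 fold changes of 2.20, 2.20, 1.72 and 1.55. The Cstf1 site had 1.95 to 2.56 tags in Ebf1-KO, 8.47 to 9.99 in Pax5-KO and 1.42 to 4.14 in WT libraries, so the gain there was seen in Pax5-KO and not in Ebf1-KO. All 13 and all 6 sites were also called higher with TMM scaling. Since TMM raised the ratios over WT in general, this is largely implied and is no separate support. The 13 were 7 without Ebf1-KO replicate 3.

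**Figure D4:**
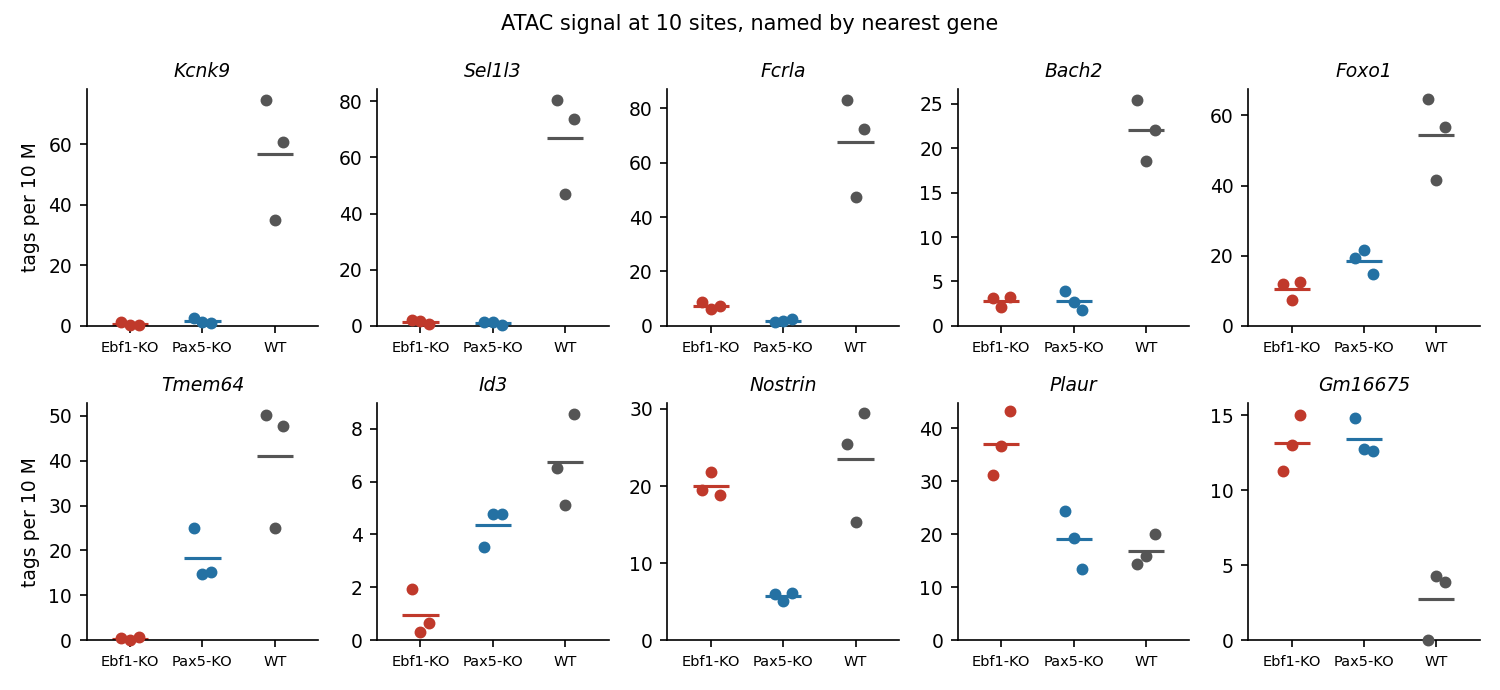
ATAC signal in tags per 10 M (vertical axes, each starting at 0) in 3 libraries per genotype (points) with their mean (lines) at 10 of the 675 sites, titled by nearest gene. Kcnk9, Sel1l3, Fcrla, Bach2 and Foxo1 sites are highest in WT, Tmem64 and Id3 sites are lowest in Ebf1-KO, the Nostrin site is lowest in Pax5-KO, and the Plaur and Gm16675 sites are highest in a knockout.

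Of 28 B-lineage transcription factor genes on the list used, 7 were nearest to one of the 675 sites, with 9 sites between them. Of these 9 sites, 7 were lower in each knockout than in WT and none was higher. Among the 675 sites 78.2% (Ebf1-KO) and 79.4% (Pax5-KO) were lower, and among all sites tested 51.1 and 51.5%. The median log2 fold changes of the 9 sites were −1.26 and −0.74, beside −1.12 and −0.68 for the 675 sites. The site 10.9 kb upstream of Irf8, a regulator of B-cell and myeloid fate, had 3.5, 6.05 and 3.84 tags in Ebf1-KO, 5.64, 5.04 and 7.82 in Pax5-KO, against 53.6, 29.3 and 36.5 in WT libraries. The site near Bach2, which represses plasma-cell and myeloid genes, lay 58.2 kb from the start the authors used and inside the Bach2 gene of GENCODE vM21, and had 3.12, 2.12 and 3.20 tags in Ebf1-KO, 3.88, 2.65 and 1.74 in Pax5-KO, against 25.5, 18.5 and 22.01 in WT libraries. In both cases the knockouts overlapped each other and stood well below WT. The site 176 kb downstream of the start of Foxo1, a factor needed for early B-cell genes, had 12.1, 7.26 and 12.5 tags in Ebf1-KO, 19.4, 21.7 and 14.8 in Pax5-KO, against 64.7, 41.6 and 56.7 in WT libraries. It was lower in Ebf1-KO than in Pax5-KO (−0.75 ± 0.27, adjusted p = 0.0246, limma), and so was Foxo1 RNA, which averaged 33.5 ± 1.28 reads per 10 M in Ebf1-KO, 659 ± 124 in Pax5-KO and 2298 ± 625 in WT cells.

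The site 15.9 kb upstream of Id3, an inhibitor of E proteins, had 1.95, 0.3 and 0.64 tags in Ebf1-KO, 3.53, 4.77 and 4.78 in Pax5-KO, against 6.53, 5.13 and 8.55 in WT libraries. It was called lower in Ebf1-KO over WT and over Pax5-KO, and not in Pax5-KO over WT (adjusted p = 0.227, limma). Lef1, a factor of the Wnt pathway expressed in pro-B cells, was nearest to 3 sites. The one with the highest WT signal, 52.9 kb upstream, had 23.4, 31.2 and 27.5 tags in Ebf1-KO, 13.8, 11.1 and 13.03 in Pax5-KO, against 47.0, 30.5 and 37.8 in WT libraries, and was higher in Ebf1-KO than in Pax5-KO (1.07 ± 0.26, adjusted p = 0.00128, limma). The one 3.38 kb upstream had 3.93 to 5.76 tags in Ebf1-KO, 4.24 to 6.35 in Pax5-KO and 27.6 to 46.4 in WT libraries. Of these, the first was called lower in Pax5-KO alone and the second in both knockouts. Lef1 RNA averaged 28.4 ± 7.28 reads per 10 M in Ebf1-KO, 214 ± 18.4 in Pax5-KO and 1556 ± 71.1 in WT cells. Relative to the median site, the site near Bcl11a had log2 fold changes over WT of 0.12 (Ebf1-KO) and −0.42 (Pax5-KO). The site near Fli1 lay above the median site in both, at 0.75 (Ebf1-KO) and 0.54 (Pax5-KO). Of the 7 genes, 6 had lower RNA in each knockout than in WT, beside 14.4% (Ebf1-KO) and 11.9% (Pax5-KO) of all genes. The exception was Fli1, an ETS factor, whose RNA was higher in Ebf1-KO and not called in Pax5-KO.

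Among 25 genes of the pre-B receptor and its signalling, 3 were nearest to a site. The site 1.11 kb upstream of Fcrla, an intracellular Fc receptor-like protein of B cells, had 8.96, 6.05 and 7.36 tags in Ebf1-KO, 1.41, 1.86 and 2.61 in Pax5-KO, against 83.0, 47.3 and 72.2 in WT libraries. Accessibility and RNA took the same order there, with Fcrla RNA at 15.6 ± 1.48 reads per 10 M in Ebf1-KO, 0.606 ± 0.307 in Pax5-KO and 58.9 ± 12.7 in WT cells. The site 1.72 kb upstream of Blnk, the adaptor that links the pre-B receptor to downstream kinases, had 0, 3.33 and 1.92 tags in Ebf1-KO, 2.12, 2.92 and 2.61 in Pax5-KO, against 34.6, 15.9 and 22.3 in WT libraries. Blnk RNA averaged 0.99 ± 0.34 in Ebf1-KO, 0.48 ± 0.58 in Pax5-KO and 1151 ± 167 in WT cells. The Cd22 site, near the gene for an inhibitory co-receptor, had 5.75 to 11.3 tags in Ebf1-KO, 5.65 to 8.47 in Pax5-KO and 11.1 to 12.8 in WT libraries, with log2 fold changes of 0.26 in Ebf1-KO, not called, and −0.01 in Pax5-KO, called lower under the authors' scaling and not with TMM. RNA of all 3 genes was lower in both knockouts.

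Of 17 genes for cytokine receptors, survival and the cell cycle, 2 were nearest to a site. The site 19.3 kb upstream of Il7r, the interleukin-7 receptor gene, had 1.17, 1.21 and 1.60 tags in Ebf1-KO, 0.71, 1.59 and 0.43 in Pax5-KO, against 22.2, 13.1 and 6.99 in WT libraries. Il7r RNA nevertheless averaged 2079 ± 115 reads per 10 M in Ebf1-KO, 869 ± 96.7 in Pax5-KO and 1821 ± 175 in WT cells, and was not called different between Ebf1-KO and WT (adjusted p = 0.232, limma, and 0.096 with the replicate block). The Socs2 site, inside the GENCODE gene for this cytokine-signalling inhibitor, had 1.56, 2.12 and 2.88 tags in Ebf1-KO, 7.76, 7.42 and 6.08 in Pax5-KO, against 11.1, 9.69 and 11.1 in WT libraries, while Socs2 RNA was called higher in both knockouts. Of 9 adhesion and homing genes, Cxcr4, S1pr1 and Selplg were nearest to 4 sites, all 4 lower in each knockout. Among the 675 sites 78.2% (Ebf1-KO) and 79.4% (Pax5-KO) were lower, and among all sites 51.1 and 51.5%. At the site 15.9 kb upstream of Cxcr4, the CXCL12 receptor gene, the libraries had 7.01, 8.47 and 8.32 tags in Ebf1-KO, 5.29, 3.45 and 3.04 in Pax5-KO, against 39.9, 37.6 and 41.2 in WT cells. The S1pr1 and Selplg sites fell less, by 0.73 each in Ebf1-KO, and with TMM both were called lower in Ebf1-KO cells but not in Pax5-KO cells. RNA of Cxcr4 was called lower in both knockouts, and that of S1pr1 in Pax5-KO alone. Selplg RNA was called higher in Ebf1-KO and was not called in Pax5-KO. None of 6 V(D)J recombination genes and none of 15 genes of other lineages was nearest to one of the 675 sites.

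The 675 sites were spread over 20 chromosomes, 672 of them on autosomes, and 569 genes were named as nearest, while 40 sites had no gene named. Of these genes, 518 had 1 site, 40 had 2 and 11 had 3 or more. Irf2bp2, a transcriptional co-repressor gene, had the most, with 5 sites over 181 kb. Against WT, 1 of the 5 was lower in Ebf1-KO, and none was called in Pax5-KO, where TMM scaling called 4 of the 5 higher. The site 16.3 kb from its start had 3.12, 5.75 and 2.56 tags in Ebf1-KO, 18.7, 17.5 and 16.1 in Pax5-KO, against 13.1, 10.3 and 15.02 in WT libraries, so that every Pax5-KO library was above every WT library. A530013C23Rik, a non-coding gene, had 4 sites, of which Ebf1-KO cells had 2 lower and Pax5-KO cells all 4, but with log2 fold changes in Pax5-KO of only −0.22 to −0.01 relative to the median site, and none of the 4 was called in Pax5-KO with TMM. Lrrc32, which encodes a surface carrier of TGF-beta, also had 4. The 2 nearest its start were called lower in both knockouts, with log2 fold changes over WT of −2.37 (Ebf1-KO) and −1.94 (Pax5-KO) for the site 7.65 kb upstream, and −1.64 (Ebf1-KO) and 0.02 (Pax5-KO) for the one 5.76 kb upstream, which TMM did not call in Pax5-KO. The 2 beyond 40 kb were not called under the authors' scaling, and both were called higher in Pax5-KO with TMM.

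The sites lay 29.4 kb from the nearest start at the median and 923 kb at most, 459 of them upstream and 216 downstream. By distance, 75.7% of 144 sites within 10 kb, 77.7% of 300 sites between 10 and 50 kb and 80.5% of 231 sites beyond 50 kb were lower in Ebf1-KO, with median log2 fold changes of −0.88, −1.02 and −1.48. In Pax5-KO 79.9, 76.7 and 82.7% were lower, with medians of −0.60, −0.57 and −0.84. Loss was therefore common at every distance. By the authors' ChIP score, the 225 sites of highest score had 85.8% lower in Ebf1-KO and 89.8% in Pax5-KO. Among the 225 of lowest score 72.0 and 73.8% were lower. Median WT signal was 26.4 tags at the highest scores and 16.9 at the lowest. Of the 675 sites, 148 had their centre inside a GENCODE vM21 gene, 66 of these in a protein-coding gene. The remaining 527, outside any GENCODE gene, included 409 sites lower in Ebf1-KO and 420 lower in Pax5-KO (77.6 and 79.7%), shares close to those of all 675. Spearman's rho across the 675 sites between G+C content in the 200 bp window and the log2 fold change over WT was 0.24 for Ebf1-KO and 0.32 for Pax5-KO, as a description, since the sites share libraries and depth.

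For the EBF1 and PAX5 cores, the 675 sites stood between the single-factor classes. The EBF1 core CCCNNGGG, a palindrome read on both strands, was found in the 200 bp window of 40.6% of them, against 56.2% of EBF1-only and 6.75% of PAX5-only intergenic distal sites and 35.7% of all 14372 bound sites scanned. The same core flanked by T and A was in 12.7% of the 675, against 28.6% of EBF1-only and 0.635% of PAX5-only sites and 15.3% of all. The PAX5 core GCNTGAC was in 15.4%, against 6.51% of EBF1-only, 19.4% of PAX5-only and 12.1% of all sites. Sequences of other factors of these cells were also counted on both strands, and could overlap a core. RUNX (TGTGGT) was in 36.4% against 25.9% of all sites, 41.6% of intronic sites bound by both factors and 33.0% of PAX5-only sites. ETS (AGGAAG) was in 45.3% against 39.6% of all, 46.4% of the same intronic and 48.8% of PAX5-only sites. Against all sites, the E-boxes were in 23.4 against 19.2% (CAGCTG) and 25.0 against 19.7% (CAGGTG), and the octamer ATGCAAAT in 4 against 2.56%. In the same order, intronic sites bound by both factors had close shares, of 24.7, 24.3 and 3.74%. EBF1-only intergenic sites had 20.2, 17.4 and 3.84%, and PAX5-only intergenic sites 20.4, 22.5 and 2.77%. These are shares of windows with a match, and a match is not a shown binding site.

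The EBF1 core divided the sites in the direct comparison of the knockouts. Of 274 sites with the core, 95 were lower and 8 higher in Ebf1-KO than in Pax5-KO (34.7 and 2.92%), with a median log2 fold change of −0.39, and of 401 sites without it, 71 were lower and 50 higher (17.7 and 12.5%), with a median of −0.03. Where the core was flanked by T and A, 38 of 86 sites were lower and 1 was higher, with a median of −0.61. With the EBF1 core alone, 37.4% of 230 sites were lower, with both cores 20.5% of 44, with the PAX5 core alone 18.3% of 60 and with neither 17.6% of 341. Against WT, sites with the EBF1 core were lower in 83.9% of cases in Ebf1-KO and 75.9% in Pax5-KO. Sites without it were lower in 74.3 and 81.8%. Sites with the PAX5 core were lower in 79.8% in Ebf1-KO and 81.7% in Pax5-KO. Sites with a RUNX sequence changed less, with medians of −0.61 against −1.46 without it in Ebf1-KO and −0.38 against −0.89 in Pax5-KO. Median WT signal was 19.1 tags with the EBF1 core and 22.4 without it. These splits are descriptions and were not tested.

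**Figure D5:**
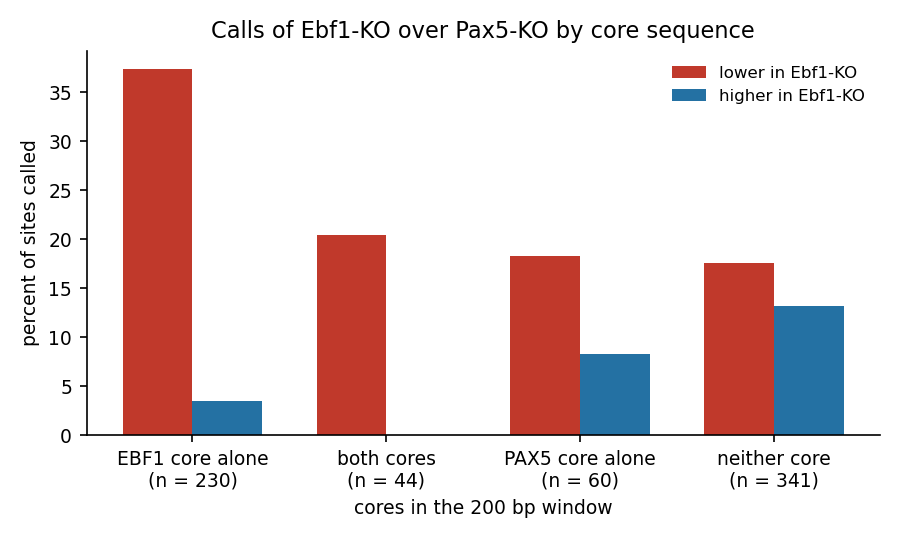
Percent of sites called lower and higher in Ebf1-KO than in Pax5-KO cells (vertical axis) among the 675 sites, divided by whether the 200 bp window holds the EBF1 core alone (230 sites), both cores (44), the PAX5 core alone (60) or neither (341). Lower calls reach 37.4% with the EBF1 core alone and 17.6 to 20.5% in the other groups.

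RNA of the nearest genes was examined as an independent measurement. Of the 569 genes, 374 had enough reads to be tested. In Ebf1-KO against WT cells 117 were lower and 138 higher (31.3 and 36.9%), beside 14.4 and 40.8% of all 12839 genes tested. In Pax5-KO against WT cells 100 were lower and 125 higher (26.7 and 33.4%), beside 11.9 and 34.7% of all genes. In Ebf1-KO against Pax5-KO cells 95 were lower and 95 higher (25.4% each), beside 13.3 and 17.5% of all genes. Lower RNA was thus more frequent among these genes than among all genes in each comparison. The split depended on the scaling and the test. Under TMM 127 were lower and 126 higher in Ebf1-KO than in WT (34.0 and 33.7%), beside 15.5 and 35.8% of all genes. In edgeR's quasi-likelihood test on recovered reads 163 were lower and 117 higher (43.6 and 31.3%), beside 27.8 and 29.7% of all genes. In Pax5-KO over WT edgeR gave 151 lower and 105 higher (40.4 and 28.1%), beside 23.8 and 26.1% of all genes. The excess of lower RNA was present in each of these settings, whereas the share of higher RNA against WT lay below that of all genes under the authors' scaling and slightly above it in edgeR.

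Genes next to a site that had lost accessibility had lower RNA more often than genes next to uncalled sites. Against WT, higher RNA was less frequent at them than among all genes under the authors' scaling. In Ebf1-KO against WT, of 297 genes with a lower and no higher site, 102 had lower and 101 had higher RNA, and of 68 genes with no called site, 13 had lower and 31 higher RNA. In Pax5-KO, of 301 genes with a lower and no higher site 91 had lower and 95 higher RNA, and of 68 with no called site 9 had lower and 29 higher RNA. In Ebf1-KO against Pax5-KO, of 95 genes with a lower and no higher site 36 had lower and 22 higher RNA, of 34 with a higher and no lower site 9 had lower and 13 higher RNA, and of 243 with no called site 50 had lower and 58 higher RNA. At genes with a lower and no higher site, 34.3% had lower and 34.0% higher RNA in Ebf1-KO, beside 14.4 and 40.8% of all genes. In Pax5-KO the shares were 30.2 and 31.6%, beside 11.9 and 34.7%. In Ebf1-KO against Pax5-KO they were 37.9 and 23.2%, beside 13.3 and 17.5%. These counts were not tested. Cecr2, which encodes a chromatin-remodelling protein, had RNA and accessibility in different orders. Its 3 sites, 21.4 to 47.5 kb upstream, had 0.39 to 3.52 tags in Ebf1-KO, 0.43 to 4.23 in Pax5-KO and 12.2 to 32.7 in WT libraries, and did not differ between the knockouts beyond the spread. Cecr2 RNA averaged 146 ± 69.8 reads per 10 M in Ebf1-KO, 5210 ± 370 in Pax5-KO and 4492 ± 264 in WT cells.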

How the data were processed

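ATAC and RNA were measured in 3 libraries per genotype. Per the submitters' processing notes, ATAC was processed with Bowtie2 and HOMER and RNA with TopHat and HOMER, on mm10, with versions not given in the sources used here. Per the file headers, the authors deposited ATAC signal as tags per 10 M in each peak and RNA signal as exon reads per 10 M mapped. The peak score is the authors' own, deposited with each ChIP peak, as are distances and annotation. Dividing by the value of 1 tag or read returned whole numbers (within 0.1) for all values, so read counts could be recovered for the alternatives. In ATAC 1 tag was worth 0.259 to 0.653 per 10 M, which sets the precision of low values, and RNA libraries held 15.6 to 63.6 M exon reads.

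For either assay, one limma-trend model of log2(value + 1) covered all 9 libraries, two-sided, with Benjamini-Hochberg adjustment at 0.05. Sites needed 10 tags in all, and genes passed edgeR's filterByExpr. Class medians were compared by exact permutation of libraries. Sites are named by rule: in each comparison the 6 that rose most and the 6 that fell most, if called and with libraries apart, the 3 highest in WT, the site of highest WT signal per listed gene, and the 3 loci with most sites. Additional sites of Lef1, Cxcr4, Cecr2 and Irf2bp2, and the 8 sequence windows, were chosen after their values were seen. The sites and lists were chosen with earlier results of these data known. The fits reported have no replicate block in either assay. RNA replicate numbers nevertheless pair the libraries, since deviations from genotype means correlated in all 9 same-number pairs (r from 0.116 to 0.440). Alternatives were 2 pseudocounts, TMM, filters, edgeR, DESeq2, a replicate block and leaving out each library. The method was tested on simulated data. Python 3.11.15 ran with SciPy 1.17.1, pandas 2.3.3, matplotlib 3.10.9 and NumPy 2.4.6, and R 4.3.3 with DESeq2 1.42.0, limma 3.58.1 and edgeR 4.0.16. No sequence from chromosome 18 is printed. One pro-B marker, and the sum of the list that holds it, is not reported here.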

Additional observations from a re-analysis of the deposited data

How the results depend on the processing

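Of the values recomputed under other settings, 322 stayed close to the reported one, 25 moved and 1 turned its sign, and the cause was not tested. A count was taken as close unless it changed by more than 1.5 times. Some settings could not alter a value. Leaving out a Pax5-KO library, for example, could not change the median difference of Ebf1-KO over WT. The tally is therefore no measure of stability. TMM scaling, edgeR and DESeq2 on recovered reads changed the counts of sites most. Sites higher in Ebf1-KO than in WT numbered 97, 101 and 95 in that order, against 13 as reported. Sites lower in Pax5-KO than in WT numbered 318, 325 and 285, against 536, and sites higher 73, 77 and 56, against 6. The lower ones were 47.1, 48.1 and 42.2% of the 675, beside 21.3, 22.1 and 17.3% of all sites. The higher ones were 10.8, 11.4 and 8.30%, beside 13.8, 15.6 and 9.91% of all sites. Sites higher in Ebf1-KO than in Pax5-KO numbered 93 with TMM and 88 with edgeR, against 58. Nearest genes with lower RNA in Pax5-KO than in WT were 151 with either edgeR or DESeq2, against 100. This was 40.4% of those tested, beside 23.8% of all genes with edgeR and 24.1% with DESeq2. Leaving out 1 library gave 7 to 16 sites higher in Ebf1-KO than in WT, lowest without Ebf1-KO replicate 3, and 34 to 86 higher in Ebf1-KO than in Pax5-KO, lowest without Ebf1-KO replicate 3. The shares were 1.04 to 2.37% over WT, beside 2.38 to 3.70% of all sites. Over Pax5-KO they were 5.04 to 12.7%, beside 4.56 to 11.6% of all sites.

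The difference in median log2 signal of the 675 sites was −1.57 with a pseudocount of 5 and −1.41 with TMM in Ebf1-KO over WT, −1.18 and −0.69 in Pax5-KO over WT, and −0.40 with a pseudocount of 5 in Ebf1-KO over Pax5-KO. With that pseudocount, the change in margin over EBF1-only sites was −0.90 in Ebf1-KO over WT and −0.78 in Pax5-KO over WT, and over PAX5-only sites −0.38 in Pax5-KO over WT and −0.42 in Ebf1-KO over Pax5-KO. The last 2 were −0.14 and −0.71 in the main setting, so the overlap of Pax5-KO with WT over PAX5-only sites rests on the pseudocount. The change in margin over intronic sites in Ebf1-KO over Pax5-KO, 0.0206 as reported, was −0.0035 to 0.0484 when 1 library was left out, and negative without Pax5-KO replicate 2.

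In ATAC, same-numbered libraries did not deviate together (r from −0.052 to 0.110). There a replicate block gave 523 lower and 12 higher sites in Ebf1-KO over WT (77.5 and 1.78%), beside 51.2 and 3.25% of all sites. In Pax5-KO over WT it gave 534 and 6 (79.1 and 0.889%), beside 51.5 and 2.11% of all sites. In Ebf1-KO over Pax5-KO it gave 169 and 59 (25.0 and 8.74%), beside 12.9 and 8.90% of all sites. In RNA, where the numbers pair, the block gave 134 lower and 159 higher nearest genes in Ebf1-KO over WT. These were 35.8 and 42.5% of those tested, beside 17.4 and 51.01% of all genes. In Pax5-KO over WT it gave 120 and 149 (32.1 and 39.8%), beside 15.3 and 47.6% of all genes. In Ebf1-KO over Pax5-KO it gave 116 and 117 (31.02 and 31.3%), beside 18.96 and 24.8% of all genes. None of these counts moved by over 1.5 times. Of the RNA calls stated for named genes, only that of S1pr1 in Ebf1-KO over WT changed, to lower (adjusted p = 0.0251, limma with the block). Sites with few tags in a knockout are limited by depth, since 1 tag is a large part of their value.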

Other observations

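Several of the 675 sites lay among the immunoglobulin genes, at positions taken from GENCODE vM21 and chosen after their values were seen. Within the kappa light-chain locus (Igk, chr6:67555497-70726966) were 6 of the 675 sites and 83 bound sites in all. Against WT, Ebf1-KO cells had 5 of the 6 lower and Pax5-KO cells 4, and 3 were lower in Ebf1-KO than in Pax5-KO. Among the 675 sites the shares were 78.2, 79.4 and 24.6%, and among all bound sites tested 51.1, 51.5 and 12.6%. The authors' annotation named 4930515G16Rik or Rprl1 as their nearest genes. The site at chr6:68884212-68884493 had 0.39, 3.33 and 1.28 tags per 10 M in Ebf1-KO, 28.9, 23.3 and 18.7 in Pax5-KO, against 32.01, 20.2 and 31.1 in WT libraries, so that its Pax5-KO and WT libraries overlapped while Ebf1-KO stood far below. The one at chr6:70040909-70041226 averaged 1.42 tags in Ebf1-KO, 1.26 in Pax5-KO and 39.0 tags in WT libraries. Within the heavy-chain locus (Igh, chr12:113254830-116010093) were 2 of the 675 sites, both lower in each knockout than in WT and lower in Ebf1-KO than in Pax5-KO. Within the lambda light-chain locus (Igl, chr16:19061618-19260859) was 1, lower in Pax5-KO than in WT and higher in Ebf1-KO than in Pax5-KO.

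All 3 sites nearest Gpr12, a receptor gene, were lower in Ebf1-KO than in WT and than in Pax5-KO. Among all sites tested 51.1 and 12.6% were. With TMM scaling 2 of the 3 were called higher in Pax5-KO than in WT, beside 13.8% of all sites. The site 74.6 kb upstream had 4.67, 5.14 and 7.04 tags in Ebf1-KO, 29.3, 22.5 and 28.2 in Pax5-KO, against 29.4, 18.5 and 30.8 in WT libraries. Gpr12 RNA was listed at 0 in all Ebf1-KO and WT libraries and at 3.13, 3.49 and 6.06 reads per 10 M in Pax5-KO libraries.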
